A study of Mus musculus with 7 samples.

Results

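A set of 10 genes that mark cardiac macrophages was followed in the hearts of mdx mice with and without IKKβ in their cardiomyocytes. These were the resident markers Lyve1, Folr2, Cd163, C1qa, C1qb and C1qc, the recruited marker Ccr2, and the accompanying genes Mrc1, Cx3cr1 and Ms4a6d. Every probe set assigned to 1 of these genes alone was kept, which gave 19 of the 45037 probe sets and 10 of the 18193 genes with a single symbol on the array. The genes were picked with their difference between the genotypes already known, so the differences below describe the members and carry no test. Each of the 10 genes was on the array, and no member was removed for low signal.

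The mdx mouse lacks dystrophin and models Duchenne muscular dystrophy, including its cardiomyopathy. IKKβ is the kinase that releases NF-κB from its inhibitors in the classical pathway. Both groups were male mdx mice of 7 months with floxed IKKβ alleles. The colony's mdx mice were bought as C57BL/10 ScSn, and the background of the crossed lines was not given. The 4 mdx HRTΔIKKβ hearts, labelled Myh6-cre, also carried cre recombinase under the alpha myosin heavy chain promoter, which acts in cardiomyocytes, so the deletion was aimed at cardiomyocytes and not at macrophages. The 3 mdx IKKβf/f hearts came from littermates without cre. Each array held total RNA of 1 whole heart.

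The heart holds macrophages of more than one origin. Resident cells are seeded before birth, renew themselves in place, and carry Lyve1, Folr2 and Cd163, while C1q genes are strong in many tissue macrophages. Recruited cells arise from blood monocytes that leave the marrow and enter injured tissue through the chemokine receptor CCR2. In whole-heart RNA, fewer cells of a type and less RNA per cell cannot be told apart.

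The arrays were alike in scale, with medians between 6.73 and 6.75 on the log2 scale. General macrophage genes were clearly detected, since 22 of 24 lay above the median probe set, and the 7 cardiomyocyte genes lay at or above the 99th percentile of all probe sets. Several hearts held marker RNA of other tissues. The summed skeletal muscle score, the mean log2 value of 8 genes centred over the 7 hearts, was 3.83 in mdx IKKβf/f replicate 1 and between -1.22 and 0.50 in the other hearts. The neutrophil score over 7 genes was 2.59 in mdx HRTΔIKKβ replicate 2 and 2.11 in mdx IKKβf/f replicate 1, against at most -0.28 elsewhere, and the airway score over 5 genes was 2.89 in mdx HRTΔIKKβ replicate 2 against at most 0.64. Atrial content differed too. The atrial score over 6 genes was -2.01 in mdx IKKβf/f replicate 2 and between -0.32 and 1.23 in the other hearts. The targeted gene Ikbkb averaged 8.72 in mdx HRTΔIKKβ and 8.90 in mdx IKKβf/f hearts on its brightest probe set, a log2 difference of -0.18 ± 0.11 (SE), and the other 4 probe sets differed by -0.08 to 0.02. Where these probes lie relative to the deleted exons was not given, so Ikbkb does not check the labels.

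Of the 19 member probe sets, 15 averaged higher with the deletion and 4 averaged lower. Lyve1 and Ms4a6d showed the widest separation, Cd163 and C1qa a narrower one, and the remaining genes overlapped between the groups. A mean at least 1.5-fold higher was seen for 4 member probe sets, both of Lyve1 and 2 of Ms4a6d, where 0.79% of all probe sets reached this fold. No member was at least 1.5-fold lower, where 0.242% of all probe sets were. In 6 member probe sets every mdx HRTΔIKKβ heart lay above every mdx IKKβf/f heart, against 3.01% of all probe sets, and in 0 did every heart lie below, against 2.44%. As the members were selected on this contrast, nothing is read from these shares. Limma with Benjamini-Hochberg adjustment called 0% of all probe sets, with 2735 at an unadjusted p below 0.05 and a smallest adjusted p of 0.336. The median difference was 0.27 over the members and -0.01 over all probe sets.

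**Figure D1:**
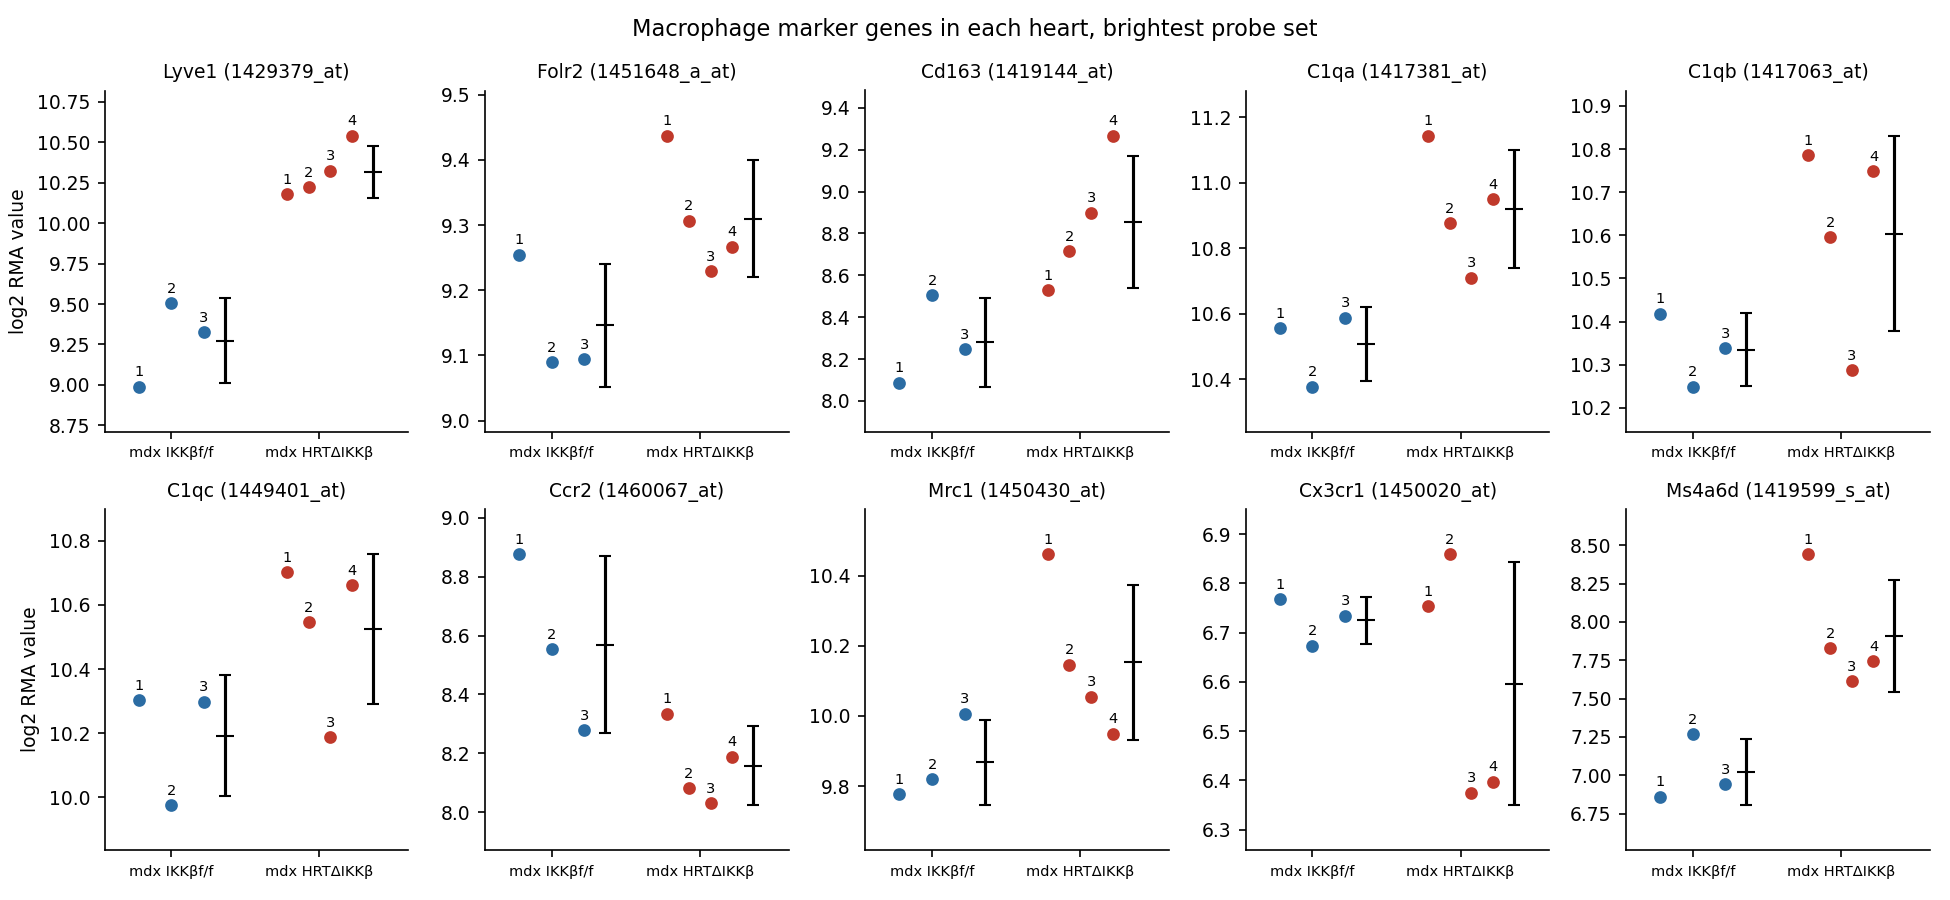
Log2 RMA value of each of the 10 genes in every heart, on the probe set with the highest mean; numbers are replicates, bars show the mean and SD of each group, and each panel has its own axis. Lyve1, Cd163, C1qa and Ms4a6d separate the 4 mdx HRTΔIKKβ hearts from the 3 mdx IKKβf/f hearts, and the other 6 genes overlap.

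**Figure D2:**
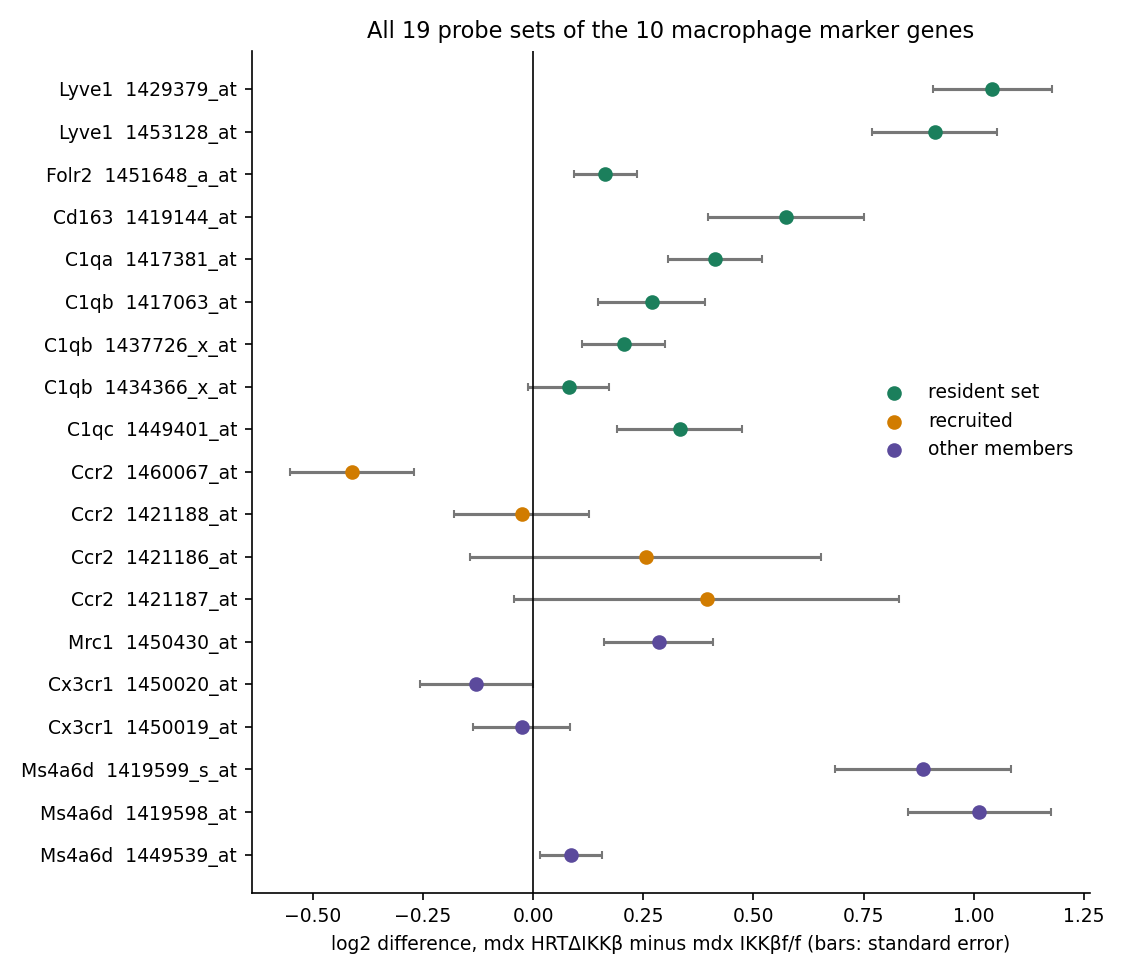
Mean of the mdx HRTΔIKKβ hearts less that of the mdx IKKβf/f hearts on the log2 scale, with its standard error, for all 19 probe sets. Both Lyve1 probe sets and 2 of the 3 Ms4a6d probe sets lie furthest to the right, and the 4 Ccr2 probe sets spread from -0.41 to 0.39.

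Lyve1 encodes a receptor for hyaluronan that sits on resident macrophages along vessels and on lymphatic endothelium. On probe set 1429379_at the mdx HRTΔIKKβ hearts read 10.18, 10.22, 10.32 and 10.54, and the mdx IKKβf/f hearts 8.99, 9.51 and 9.33. The lowest heart with the deletion was 0.67 above the highest control. Group means were 10.32 ± 0.16 (SD, n = 4) and 9.27 ± 0.26 (SD, n = 3), a log2 difference of 1.04 ± 0.14 (SE) or 2.06-fold. The second Lyve1 probe set, 1453128_at, was designed from the same source sequence and also separated the groups, with a difference of 0.91 ± 0.14 (SE). Leaving out 1 heart at a time kept the first probe set between 0.90 and 1.16. Because Lyve1 also marks lymphatic vessels, their other markers were read. Of 8 such genes 5 averaged higher with the deletion and 3 lower, and their median was 0.15. Prox1, the transcription factor that specifies lymphatic endothelium, differed by -0.14 ± 0.13 (SE) and Flt4, its growth factor receptor, by -0.03 ± 0.05 (SE). The summed lymphatic score over 8 genes ran from -0.11 to 0.27 in mdx HRTΔIKKβ and from -0.16 to 0.01 in mdx IKKβf/f hearts, so it overlapped. Pdpn, which many stromal cells also express, was the only 1 of the 8 at an unadjusted limma p below 0.05, differing by 0.74 ± 0.31 (SE). Prox1 and Flt4, both among the 3 lower genes, were picked with their values in view, and the part of lymphatic vessels in the Lyve1 difference was not tested.

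Cd163 encodes the scavenger receptor through which macrophages take up haemoglobin bound to haptoglobin. Its probe set 1419144_at read 8.53, 8.71, 8.90 and 9.27 in mdx HRTΔIKKβ hearts and 8.09, 8.50 and 8.25 in mdx IKKβf/f hearts. The groups did not overlap, but only 0.026 separated the lowest heart with the deletion from the highest control. The log2 difference was 0.57 ± 0.18 (SE), or 1.49-fold. Cd163 and Lyve1 on 1429379_at ordered the 7 hearts identically, with replicate 4 of mdx HRTΔIKKβ at the top, then replicates 3, 2 and 1, and with mdx IKKβf/f replicate 1 at the bottom. On the other Lyve1 probe set replicates 1 and 2, at 9.18 and 9.15, changed places.

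Folr2 encodes folate receptor beta, a surface marker of resident macrophages in many tissues. On 1451648_a_at the mdx HRTΔIKKβ hearts read 9.44, 9.31, 9.23 and 9.27, and the mdx IKKβf/f hearts 9.25, 9.09 and 9.09. The difference was 0.16 ± 0.07 (SE), and control replicate 1 lay above replicate 3 of the deleted group. Folr2 thus had the smallest difference among the 6 resident genes on their brightest probe sets, although 1 other C1qb probe set differed by less.

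C1qa, C1qb and C1qc encode the 3 chains of C1q, the molecule that starts the classical complement pathway and that macrophages supply to tissues. In the gene order of RefSeq the 3 lie next to each other, as C1qb, C1qc and C1qa. C1qa, on 1417381_at, read 11.14, 10.88, 10.71 and 10.95 in mdx HRTΔIKKβ hearts and 10.56, 10.38 and 10.59 in mdx IKKβf/f hearts. The groups were apart by 0.12, and the difference was 0.41 ± 0.11 (SE). C1qc, on 1449401_at, read 10.70, 10.55, 10.19 and 10.66 against 10.30, 9.98 and 10.30, with a difference of 0.33 ± 0.14 (SE). Replicate 3 of the deleted group fell among the controls here. C1qb did the same, reading 10.79, 10.60, 10.29 and 10.75 against 10.42, 10.25 and 10.34 on 1417063_at, with a difference of 0.27 ± 0.12 (SE). Its other probe sets, 1437726_x_at and 1434366_x_at, can match several transcripts and differed by 0.21 ± 0.09 (SE) and 0.08 ± 0.09 (SE). After centring, the chains followed each other closely from heart to heart, with root mean square differences of 0.073 to 0.10 on the log2 scale. Among mdx HRTΔIKKβ hearts the brightest probe set of each chain ran from replicate 1 through 4 and 2 down to 3, while the other C1qb probe sets had replicate 2 above 4. Replicate 1, the highest of the 4 for every C1q probe set, was the lowest for Cd163 and for Lyve1 on 1429379_at.

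Mrc1 encodes the mannose receptor of tissue macrophages. Its probe set 1450430_at read 10.46, 10.15, 10.05 and 9.95 in mdx HRTΔIKKβ hearts and 9.78, 9.82 and 10.01 in mdx IKKβf/f hearts. The difference was 0.28 ± 0.12 (SE), and the top control lay above replicate 4 of the deleted group. Mrc1 thus ran opposite to Lyve1 within the deleted group, highest in replicate 1 and lowest in replicate 4.

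Ms4a6d belongs to the MS4A family of membrane proteins, several of which are expressed in macrophages and monocytes. On 1419598_at the mdx HRTΔIKKβ hearts read 7.97, 7.48, 7.32 and 7.56, and the mdx IKKβf/f hearts 6.34, 6.62 and 6.75. Every heart of the deleted group lay at least 0.57 above every control, and the difference was 1.01 ± 0.16 (SE), or 2.02-fold. Probe set 1419599_s_at, which can match related transcripts, read 8.44, 7.83, 7.62 and 7.75 against 6.86, 7.27 and 6.94, and differed by 0.88 ± 0.20 (SE). The third, 1449539_at, averaged 3.63 at the 2nd percentile of all probe sets, where little signal could be measured, and differed by 0.09 ± 0.07 (SE). Ms4a6d was highest in mdx HRTΔIKKβ replicate 1 on all 3 probe sets, as were Mrc1, Folr2 and the C1q chains.

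Cx3cr1 encodes the receptor for fractalkine, carried by patrolling monocytes and by some tissue macrophages. On 1450020_at the mdx HRTΔIKKβ hearts read 6.75, 6.86, 6.38 and 6.40, and the mdx IKKβf/f hearts 6.77, 6.67 and 6.73. The controls lay within 0.094 of each other while the deleted group split into 2 hearts near the controls and 2 below them. The difference was -0.13 ± 0.13 (SE), and it was -0.03 ± 0.11 (SE) on the dimmer 1450019_at. Both Cx3cr1 probe sets lay below the median probe set.

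Ccr2 was measured by 4 probe sets that did not give one answer. On 1460067_at, the one with the highest mean, the mdx HRTΔIKKβ hearts read 8.33, 8.08, 8.03 and 8.19, and the mdx IKKβf/f hearts 8.88, 8.55 and 8.28. Ccr2 averaged lower in the deleted group by this measure, with a difference of -0.41 ± 0.14 (SE), but replicate 1 of that group lay above control replicate 3. The value was -0.26 without control replicate 1 and -0.56 without control replicate 3. The heart with the highest reading, mdx IKKβf/f replicate 1, was also the heart with the skeletal muscle score of 3.83. Control replicates 2 and 3 had scores of -0.91 and 0.50, with Ccr2 at 8.55 and 8.28. In replicates 1 to 4 of the deleted group the scores were -1.22, -0.04, -1.03 and -1.14. The same heart was thus highest on both, and the order of the other hearts differed. The part of skeletal muscle RNA in the Ccr2 difference was not tested.

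The other 3 Ccr2 probe sets were designed from a different source sequence. On 1421186_at the mdx HRTΔIKKβ hearts read 7.27, 7.43, 6.01 and 6.74, and the mdx IKKβf/f hearts 7.13, 5.91 and 6.79, a difference of 0.26 ± 0.40 (SE). On 1421187_at they read 7.36, 7.39, 5.69 and 6.66 against 6.76, 5.77 and 6.61, a difference of 0.39 ± 0.44 (SE). By these measures hearts within a group differed far more than the groups did, with replicates 1 and 2 of the deleted group at the top, and its replicate 3 together with control replicate 2 at the bottom. The sign of 1421186_at turned to -0.10 without control replicate 2, and both rose without replicate 3 of the deleted group, to 0.54 and 0.75. On 1421187_at the value was 0.09 without mdx IKKβf/f replicate 2. The fourth, 1421188_at, read 6.89, 7.07, 6.61 and 6.61 against 7.11, 6.63 and 6.72, a difference of -0.03 ± 0.15 (SE) that changed sign in 4 of 13 alternatives. Between hearts, 1421186_at and 1421187_at differed by a root mean square of 0.15, while 1460067_at differed from them by 0.60 and 0.69. Which transcripts each probe set detects cannot be settled from these values.

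**Figure D3:**
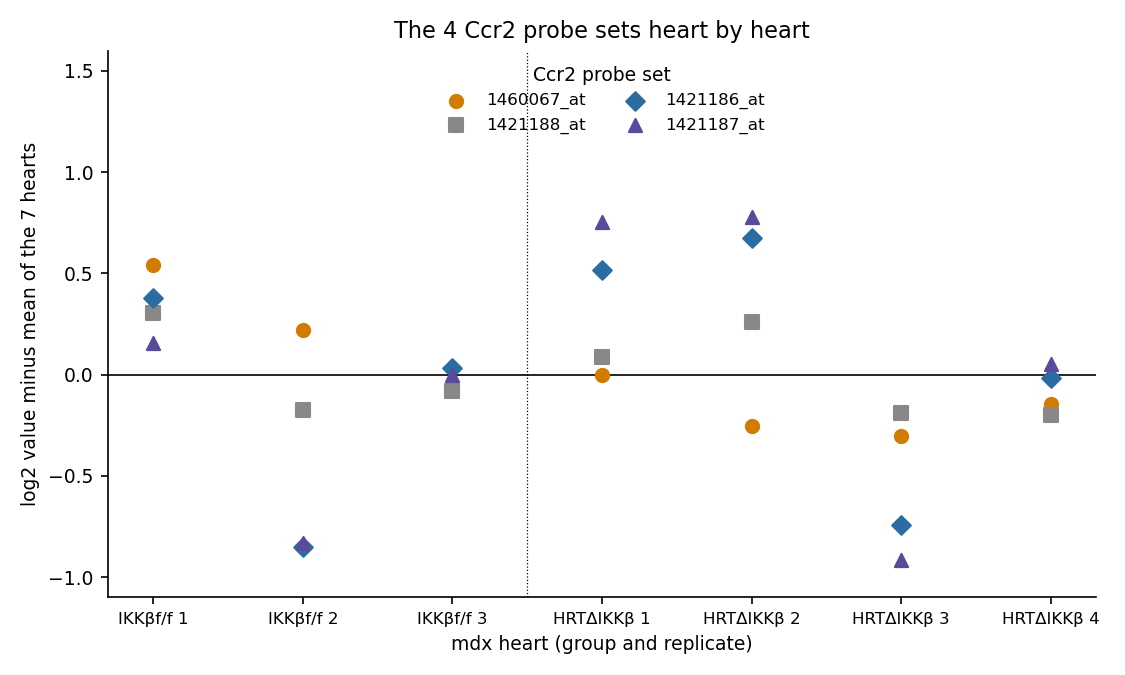
Log2 value of the 4 Ccr2 probe sets in each heart, minus the mean of that probe set over the 7 hearts. In mdx HRTΔIKKβ replicates 1 and 2 the probe sets 1421186_at and 1421187_at lie 0.52 to 0.78 above their means while 1460067_at lies at or below its own, and in mdx IKKβf/f replicate 2 the order turns round.

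The resident markers were then set against the recruited one within each heart. The resident part was the mean of the 6 centred resident genes. It was 0.24, 0.16, 0.05 and 0.35 in mdx HRTΔIKKβ hearts and -0.29, -0.27 and -0.24 in mdx IKKβf/f hearts, which differed by 0.47 with no overlap. Subtracting the centred Ccr2 value of 1460067_at gave 0.24, 0.41, 0.36 and 0.50 in the deleted group and -0.83, -0.49 and -0.18 in the controls. The contrast thus differed by 0.88 (pooled SD 0.22), with the groups apart. Because the genes were chosen on this contrast the separation is a description. The contrast differed by 0.76 without Lyve1 and by 1.0 without C1q, both of which keep the same Ccr2 part of -0.41. With each heart left out it differed by 0.71 to 1.04. It was smaller with another Ccr2 probe set. With 1421188_at in place of 1460067_at the contrast differed by 0.49, with 1421186_at by 0.21 and with 1421187_at by 0.07, and averaging all probe sets of each gene gave 0.39. The groups overlapped in those 4 versions. In these hearts the resident part of the contrast was thus separated between the groups, and the recruited part had no settled sign.

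**Figure D4:**
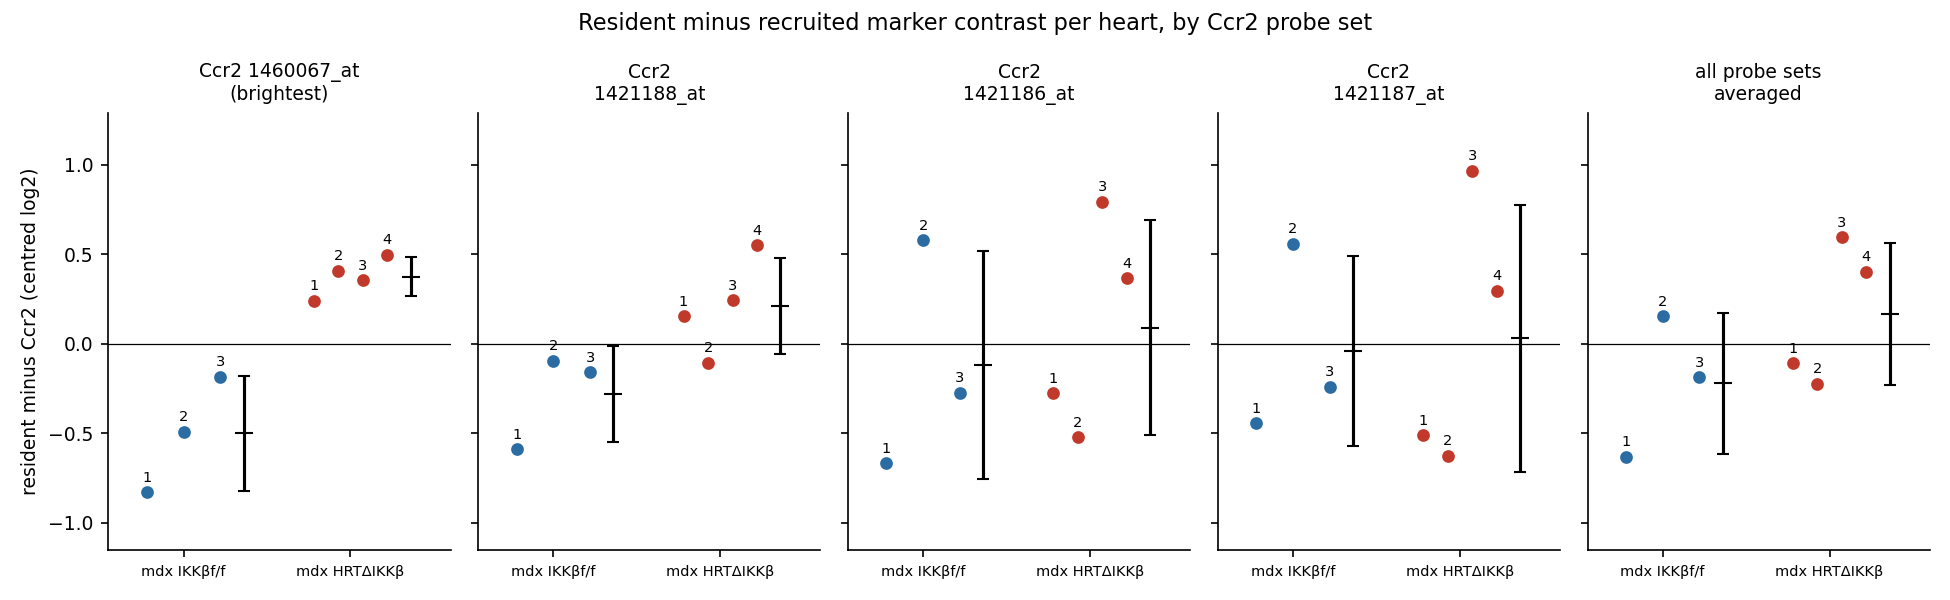
Mean of the 6 centred resident genes minus centred Ccr2 in each heart, on the log2 scale, with the mean and SD of each group; the panels differ in the Ccr2 probe set, and the last averages all probe sets of every gene. The groups are apart in the first panel, with a difference of 0.88, and overlap in the other 4, with differences of 0.07 to 0.49.

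Promoter windows of the members show which letters stand next to their start sites. RefSeq windows of GRCm38.p6, from 250 bases before to 50 bases after a start, were held for 7 members, with 2 windows for Folr2. Each was searched on both strands for the core GAGGAA bound by the myeloid factor PU.1, the half-site TGCTGAC of MAF factors, and the κB form (GGG, any pair of bases, TT, any base, CC). None of these motifs overlaps another in the matches found. The core GAGGAA was in 28.3% of all 32851 windows, TGCTGAC in 4.67% and the κB form in 4.79%. Among the members GAGGAA was found in C1qb, C1qc and Mrc1, and no member window held either other motif. Windows are printed 5′ to 3′ on the strand of the gene, with matches to GAGGAA or its reverse complement TTCCTC in capitals. They are those of the 2 neighbouring C1q genes, whose values moved together, of Mrc1, which held 3 matches, and of Ccr2, which held none.
C1qb, chr4:136886151-136886450, minus strand: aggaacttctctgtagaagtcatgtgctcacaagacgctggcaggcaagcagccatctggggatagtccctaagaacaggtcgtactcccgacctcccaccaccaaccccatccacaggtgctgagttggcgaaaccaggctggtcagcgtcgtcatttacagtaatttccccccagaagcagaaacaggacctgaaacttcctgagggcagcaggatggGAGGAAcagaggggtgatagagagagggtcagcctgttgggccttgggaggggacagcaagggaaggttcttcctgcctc
C1qc, chr4:136892865-136893164, minus strand: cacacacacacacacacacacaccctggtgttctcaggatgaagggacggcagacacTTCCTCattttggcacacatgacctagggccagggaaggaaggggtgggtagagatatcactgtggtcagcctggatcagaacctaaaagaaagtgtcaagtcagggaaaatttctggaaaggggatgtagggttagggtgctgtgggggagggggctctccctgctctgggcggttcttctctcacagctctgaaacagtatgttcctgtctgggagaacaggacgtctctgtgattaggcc
Mrc1, chr2:14229164-14229463, plus strand: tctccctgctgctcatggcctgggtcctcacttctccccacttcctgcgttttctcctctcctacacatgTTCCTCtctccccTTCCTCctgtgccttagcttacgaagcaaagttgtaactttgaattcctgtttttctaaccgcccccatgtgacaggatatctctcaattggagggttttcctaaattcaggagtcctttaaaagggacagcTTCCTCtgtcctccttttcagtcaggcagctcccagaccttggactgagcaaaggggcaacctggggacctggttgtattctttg
Ccr2, chr9:124101933-124102232, plus strand: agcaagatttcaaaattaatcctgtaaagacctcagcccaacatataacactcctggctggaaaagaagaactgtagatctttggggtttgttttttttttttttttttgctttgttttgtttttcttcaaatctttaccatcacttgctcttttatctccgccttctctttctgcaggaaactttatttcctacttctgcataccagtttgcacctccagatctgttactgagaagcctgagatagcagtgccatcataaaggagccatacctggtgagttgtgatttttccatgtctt
In C1qb the match began 30 bases before the start, in C1qc 193 bases before it, and in Mrc1 at 180, 167 and 35 bases before it. A match is a run of letters, not a measured binding site, and these arrays measured no binding.

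The genes most like Lyve1 over the 7 hearts were sought among 11474 genes at least as bright as the median probe set, by the root mean square difference after centring. They were Osmr at 0.19, Ms4a6b at 0.21, Ndnf at 0.21, Cd163 at 0.26 and Man2a1 at 0.26. Osmr is the receptor for oncostatin M, and Ms4a6b is a relative of Ms4a6d. For Ccr2 on 1460067_at the nearest were Nabp1 at 0.078, Capn3 at 0.10, Cacng7 at 0.11, F8a at 0.12 and Tmem86a at 0.13. None of these is among the genes listed for comparison. For the other Ccr2 probe sets the nearest genes were looked up after the values were seen. Those of 1421186_at were Lcp1 at 0.17, Col1a1, Laptm5, Fn1 and Anxa1. Those of 1421187_at were Cd44 at 0.20, Lcp1, Fn1, S100a4 and Ier3. Laptm5 is among the general macrophage genes listed for comparison, and Col1a1 among the fibroblast genes. S100a4 and Fn1 are among the other recruited markers listed, and Cd44 among the ligands and partners. What each Ccr2 probe set detects was not tested. The nearest to 1421188_at were Bpgm at 0.054, Dixdc1, H2az1, Rrm1 and Sntb1, and none of these is listed.

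Wider lists of macrophage genes, 1 probe set per gene, placed the members in context. No gene of any list passed the adjusted threshold, and those named below at an unadjusted limma p below 0.05 had adjusted p-values between 0.593 and 0.796. Over all 18193 genes, 3.25% were higher and 2.95% lower at an unadjusted limma p below 0.05, and 47.7% averaged higher with the deletion. Of 21 other resident markers, 17 averaged higher and 3 were higher at an unadjusted p below 0.05. Their median was 0.26, which became 0.13 without control replicate 2 and 0.16 without replicate 2 of the deleted group. Cd209g, a lectin receptor, read 6.69, 7.23, 6.72 and 6.30 against 6.26, 6.00 and 6.23, with a difference of 0.57 ± 0.20 (SE) and no overlap. Vsig4, a complement receptor, differed by 0.87 ± 0.32 (SE) and Cbr2, a carbonyl reductase, by 0.80 ± 0.27 (SE). In both, replicate 3 of the deleted group lay among the controls, as it did for C1qb and C1qc.

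Of 20 other recruited markers, also 17 averaged higher and 3 were higher at an unadjusted p below 0.05. Their median was 0.33 but depended on single hearts, being 0.09 without replicate 2 of the deleted group, 0.53 without its replicate 3 and 0.11 without control replicate 2. Thbs1, the matrix protein thrombospondin 1, read 8.71, 9.01, 8.56 and 8.27 against 7.67, 7.49 and 8.06, a difference of 0.90 ± 0.19 (SE) with no overlap. Itgal, an integrin chain of leukocytes, differed by 0.72 ± 0.28 (SE) and Lsp1, a leukocyte actin-binding protein, by 0.46 ± 0.19 (SE). The summed recruited score was 0.31, 0.93, -0.31 and -0.26 in mdx HRTΔIKKβ hearts and 0.23, -0.57 and -0.33 in mdx IKKβf/f hearts. It overlapped between the groups, and the 3 hearts highest on it were the 3 highest on the Ccr2 probe sets 1421186_at and 1421187_at. Replicate 2 of the deleted group, highest on this score, was also the heart with the highest neutrophil score, and the part of neutrophils in it was not tested. Without that heart 13 of the 20 averaged higher. The other resident score ran from -0.072 to 0.27 in the deleted group and from -0.30 to -0.080 in the controls. The lowest deleted heart and the highest control were thus nearly level. Most genes of both lists thus had differences of the same sign as the resident members, and the Ccr2 reading of 1460067_at had the opposite one.

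**Figure D5:**
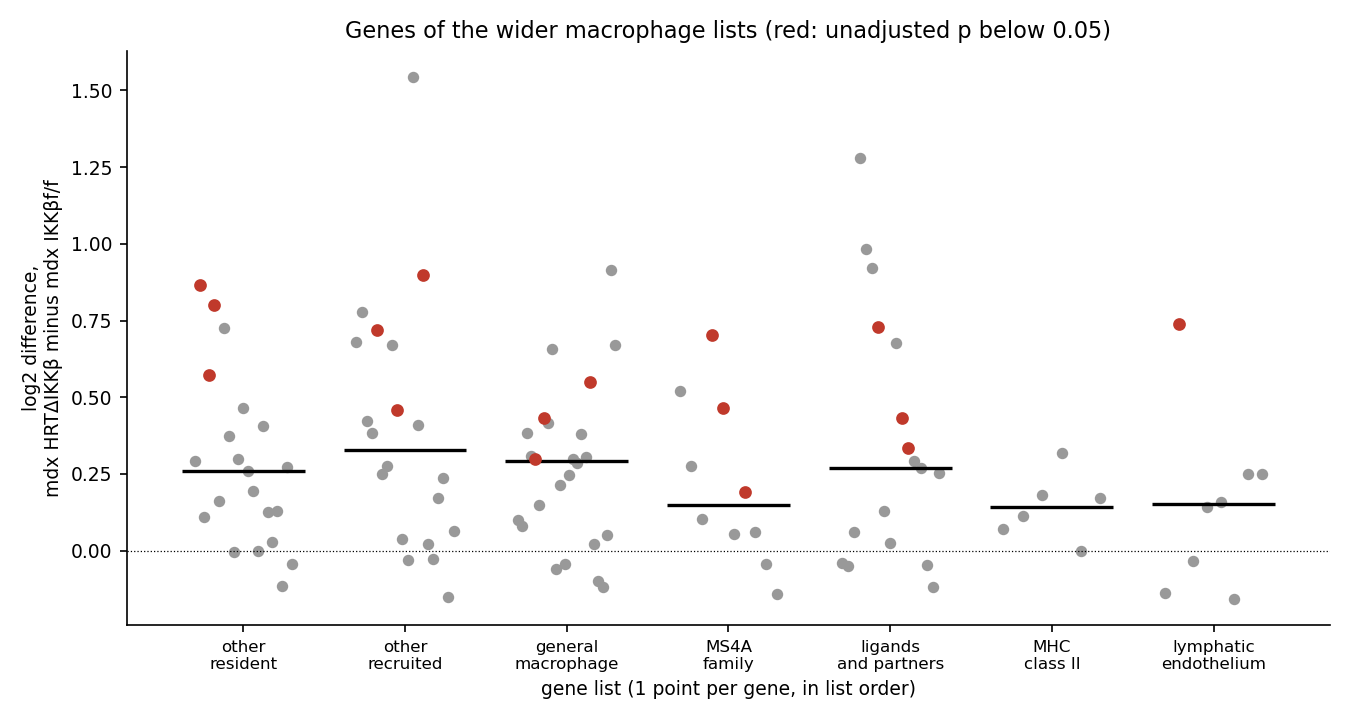
Mean of the mdx HRTΔIKKβ hearts less that of the controls, on the log2 scale, for each gene in 7 lists, with 1 point per gene and a line at each list's median; red points have an unadjusted limma p below 0.05. All 7 medians lie above 0, from 0.14 to 0.33, no gene passed the adjusted threshold, and the order of the lists changes when replicate 2 of the deleted group is left out, where the other recruited markers have a median of 0.09.

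Genes shared by macrophages in general differed by -0.12 to 0.91, with Lgals3 the highest at 0.91 ± 0.55 (SE). Lyve1 differed by 1.04 on 1429379_at and 0.91 on 1453128_at. It is a member picked with its difference known, so nothing is read from setting it beside these genes. Of 24, 20 averaged higher, with a median of 0.29 that became 0.11 without control replicate 2 and 0.17 without replicate 2 of the deleted group. Csf1r, the receptor on which macrophages depend, differed by 0.08 ± 0.10 (SE) and Adgre1, which encodes F4/80, by 0.10 ± 0.13 (SE), both named after their values were seen. Fcgr3, Cd14 and Cd53 were higher at an unadjusted limma p below 0.05, by 0.30, 0.43 and 0.55. The summed score was 0.23, 0.42, -0.29 and 0.10 against 0.16, -0.47 and -0.15, which overlapped. Without control replicate 2, the heart lowest in it, 17 of the 24 averaged higher.

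Relatives of Ms4a6d divided. Of 10 other MS4A genes, 8 averaged higher, with a median of 0.15. Ms4a6b read 8.77, 8.83, 9.14 and 9.21 in mdx HRTΔIKKβ hearts and 8.20, 8.47 and 8.18 in mdx IKKβf/f hearts, and differed by 0.70 ± 0.13 (SE) with no overlap. Ms4a6c, also with no overlap, differed by 0.46 ± 0.16 (SE) and Ms4a8a by 0.19 ± 0.07 (SE). Ms4a7, a macrophage member of the family named after its value was seen, differed by 0.06 ± 0.15 (SE).

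Ligands and partners of the marker proteins came next, of which 13 of 17 averaged higher, with a median of 0.27. Hmox1, the haem-degrading enzyme downstream of CD163, read 7.98, 7.91, 7.06 and 7.49 against 7.23, 6.70 and 6.71, a difference of 0.73 ± 0.24 (SE). C1ra and C1s1, the proteases that bind C1q, differed by 0.43 ± 0.17 (SE) and 0.34 ± 0.13 (SE), and C1s1 did not overlap. The CCR2 ligand Ccl2 read 10.53, 9.37, 7.36 and 7.44 in mdx HRTΔIKKβ hearts against 7.31, 7.32 and 7.55. Ccl2 was thus high in replicates 1 and 2 alone, the hearts where 1421186_at and 1421187_at were highest, and its difference of 1.28 ± 0.75 (SE) was not past the unadjusted threshold either. Ccl7 and Ccl12, which bind the same receptor, were highest in those 2 hearts too. These 3 chemokines were chosen for naming once their values had been seen. The CSF1 receptor ligands Csf1 and Il34 differed by -0.04 ± 0.20 (SE) and -0.05 ± 0.05 (SE), and the CX3CR1 ligand Cx3cl1 by 0.06 ± 0.11 (SE).

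Genes of antigen presentation, which divide resident macrophages into subsets, had small differences and wide spread. Of 6 MHC class II genes 5 averaged higher and 0 reached an unadjusted limma p of 0.05, with a median of 0.14. H2-Aa differed by 0.07 ± 0.30 (SE) and H2-Ab1 by 0.11 ± 0.25 (SE). The class II score was highest, at 0.53, in replicate 4 of the deleted group and lowest, at -0.43, in its replicate 1.

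Markers of other cells were read beside the resident genes. All 5 B and plasma cell genes averaged higher, led by Ighm at 3.25 ± 0.71 (SE) and Jchain at 3.02 ± 1.01 (SE), with scores of -0.29 to 2.42 in the deleted group and -1.63 to -0.24 in the controls. The 3 adipocyte genes also averaged higher, 2 of them at an unadjusted p below 0.05, and so did all 6 atrial and 5 airway genes, of which none reached it. All 8 skeletal muscle genes averaged lower with none past that threshold, as did 6 of 7 cardiomyocyte genes, whose scores stayed within 0.03 of 0. Most of these cardiomyocyte genes read close to the highest array value of 15.09, where a change in cardiomyocyte share can be hard to see. A higher average was seen for 1 of 5 dendritic cell, 2 of 4 alveolar macrophage, 4 of 7 neutrophil, 5 of 5 T cell, 4 of 5 mast cell, 5 of 6 fibroblast and 2 of 5 endothelial genes. Among these Cpa3 was higher by 0.47, Kit lower by 0.17 and Pecam1 higher by 0.30 on the log2 scale at an unadjusted limma p below 0.05. The part of any of these cells in the member differences was not tested. The Lyve1 difference on 1429379_at was 0.90 with control replicate 1 left out and 1.07 with replicate 2 of the deleted group left out. Leaving out 1 heart cannot shift a difference far in groups of this size, so this is no test of those cells.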

How the data were processed

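Total RNA of 7 whole hearts, 4 mdx HRTΔIKKβ and 3 mdx IKKβf/f, was hybridized to Affymetrix GeneChip Mouse Genome arrays, 1 heart per array. The deposited values are log2 expression per probe set, which the authors made by RMA (background correction, quantile normalization and a summary per probe set). Their methods and processing notes name Partek and Affymetrix Expression Console, with versions and which made the table not given in the sources used here. RMA evens out array scale, so a change shared by most genes would not be seen. Groups came from the sample titles, and 0 columns were left without a sample.

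The members and gene lists were chosen with earlier results of these data known. Probe sets were named from the platform annotation, in which 34945 have 1 gene symbol, 932 several and 9160 none, and members were kept whatever their signal. Of 192 genes in the wider lists 176 were matched. For lists, gene background and the contrast, a gene was represented by its brightest probe set (largest mean of the 7 hearts). The lists held other resident, other recruited and general macrophage genes, MS4A relatives, ligands and partners, MHC class II, lymphatic, dendritic, alveolar macrophage, neutrophil, B and plasma, T, mast, cardiomyocyte, atrial, skeletal muscle, airway, adipocyte, fibroblast and endothelial genes. A list's score is the mean of its centred log2 values in a heart. Standard errors and p-values came from limma 3.58.1 in R 4.3.3 (lmFit and eBayes, two-sided, no covariates) fitted to all 45037 probe sets without a filter, with Benjamini-Hochberg adjustment and a threshold of 0.05. The fit was tested on simulated data with independent noise for each probe set, so content shared between probe sets in these hearts was not simulated. Non-member genes were named at an unadjusted p of 0.05 or below, otherwise by their place in the list, and exceptions are stated. Promoter windows were searched in Python 3.11.15 with pandas 2.3.3. Alternatives were array median centring, quantile normalization repeated, removal of dim or multi-match probe sets, array weights, trended and robust eBayes, the methods' t-test, each heart left out, a replicate block and other versions of the contrast. The other 3 Ccr2 probe sets were put in place of the brightest after their values were seen. The number of arrays limits the precision. The samples are separate hearts, so p-values set the difference of the group means against the spread between animals and their dissection. A litter or batch that went with the genotype would be part of that difference.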

Additional observations from a re-analysis of the deposited data

Results flagged for a closer look

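Among the 4 mdx HRTΔIKKβ hearts, 40 values (the members and list scores) were checked for a heart far from the others by Dixon's criterion, which chance alone meets in about 1 of 20 groups, and 2 met it. The T cell score was 1.01 in replicate 1 against -0.15 to -0.11 in the other 3 hearts, and Cd3d read 8.18 there against 6.66 to 6.74. The same heart was the highest of the group for Ms4a6d, Mrc1, Folr2 and the C1q chains. The skeletal muscle score was -0.042 in replicate 2 against -1.22 to -1.03 in the other 3. No member probe set met the criterion.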

How the results depend on the processing

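Over 240 member values under the alternatives, 0 moved by more than the pooled SD between hearts, though Ccr2 and Cx3cr1 values near 0 changed sign. That count was largely fixed in advance and shows little. Leaving out 1 heart cannot shift a difference that far in groups of this size, and removing probe sets leaves the differences of the others unchanged. The contrast, 0.88, was 0.388 with all probe sets of each gene averaged and, with Ccr2 probe sets put in after their values were seen, 0.491 (1421188_at), 0.211 (1421186_at) and 0.0723 (1421187_at), because Ccr2 itself differs between its probe sets. With each heart left out it ran from 0.712 (mdx IKKβf/f replicate 1 out) to 1.04. Adjusted calls over all probe sets ran from 0 to 1, the 1 being an Igk probe set without mdx HRTΔIKKβ replicate 1 (limma adjusted p = 0.0463). Probe sets at least 1.5-fold lower, 109, numbered 74 once mdx IKKβf/f replicate 1 was left out and 191 once replicate 2 was, and were 70 with dim probe sets removed. Those at least 1.5-fold higher, 356, ran from 272 to 478 with each heart left out and were 259 with dim probe sets removed. With each heart left out, members that averaged higher ran from 15 to 17 of 19, other resident genes from 17 to 20, other recruited genes from 13 to 18 and general macrophage genes from 17 to 23. With dim probe sets removed, which leaves fewer genes, these were 13, 15, 15 and 18, and 12 members averaged higher without probe sets that can match several transcripts. Array weights put the other recruited genes at 13 with a median of 0.11. Hearts sharing a replicate number did not deviate together (r of -0.11, -0.42 and -0.04), and the labels do not pair them. These 3 values cannot exclude a shared litter or batch. With the replicate number as a block over replicates 1 to 3, the contrast was 0.836, 16 members had a higher mean and 0 probe sets were called. The methods' t-test put 2086 probe sets below 0.05 and 0 after adjustment. With 3 controls, and no absolute scale after RMA, small differences such as those of Folr2, C1qb and Mrc1, whose groups overlapped, are poorly bounded.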
